A study of Drosophila melanogaster with 12 samples.

Results

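The Cpr genes of Drosophila melanogaster encode cuticle proteins. The members described here are the protein-coding genes whose symbol is Cpr followed by a digit, which gave 70 of 13922 protein-coding genes on the X, 2L, 2R, 3L and 3R arms and chromosome 4 in the RefSeq gene table of the dm6 assembly. They lay on 3L (35 genes), 2R (21), 2L (5), 3R (5) and X (4), with none on chromosome 4, and their median length was 1093.5 bp (range 457 to 18590 bp) against 2163 bp for all protein-coding genes. Their names were taken from the gene table, and their protein sequences were not analysed here.

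Cuticle proteins of this family carry the Rebers-Riddiford domain, which binds chitin, and epidermal cells secrete them in successive sets as each larval, pupal and adult cuticle is laid down. CP190 is a zinc finger protein that insulator DNA-binding proteins bring to chromatin, where it is known at insulators, at borders between domains and at promoters of active genes. CLAMP, which recognises GA repeats through its zinc fingers, is known for its part in male dosage compensation. Kc167 is an embryo-derived line that resembles blood cells and is not an epidermal tissue. No RNA was measured in these samples, so neither the cell type nor the activity of the Cpr genes could be checked.

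Binding was measured by chromatin immunoprecipitation and sequencing in Kc167 cells, which the labels give as female. Mock cells were nucleofected without RNA, and dsCP190 cells received 12 µg of double-stranded RNA against CP190 in the same way; both were grown for 6 days. Chromatin of 200 to 500 bp went into precipitations with antibody to CP190 or to CLAMP (5 µg each), with 2 libraries per antibody and treatment and 4 further input libraries that are not analysed here. The design text of the series names a CLAMP knockdown, while the sample labels and the title name a CP190 knockdown, and the labels were followed.

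The loss of CP190 protein was not measured in these files. The CP190 peak lists held 7669 and 7964 peaks on the arms in mock cells and 2047 and 3138 after dsCP190, and the CLAMP lists held 4471 and 4514 against 2468 and 901. The labels do not say whether the 2 libraries of a group came from separate cultures. An exact permutation test of 2 libraries against 2 cannot give a two-sided p below 0.333, so the treatments are compared by values and counts with no test. Throughout, a gene is called in a library when the summit of at least 1 deposited peak lies in the gene or within 2 kb of either end, and it is reproducible when called in both mock libraries. No call means only that no peak passed the authors' threshold there.

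In mock cells the shares of Cpr genes with CP190 and with CLAMP were below those of protein-coding genes in general. CP190 was called at 28 Cpr genes (40.0%) in mock replicate 1, against 66.0% of all protein-coding genes, and at 31 (44.3%) in mock replicate 2, against 66.8%. After dsCP190 the counts were 5 (7.14%) in replicate 1, against 22.9% of all genes, and 13 (18.6%) in replicate 2, against 35.7%. The Cpr share was below that of all genes in each of the 4 CP190 libraries. CLAMP was called at 2 Cpr genes (2.86%) and 3 (4.29%) in the mock libraries, against 28.6% and 29.6% of all genes. It was called at 0 Cpr genes in both dsCP190 libraries, where the shares of all genes were 17.3% and 6.60%.

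Counting the genes called in both mock libraries, 28 of 70 Cpr genes had CP190, against 65.3% of all protein-coding genes. Short genes present a smaller target, so the share was also taken over 2 sets of genes limited by length. It was 64.5% of the 12496 genes within the length range of the Cpr genes and 57.4% of the 4560 genes between their lower and upper length quartiles (772.25 and 1894 bp). The median lengths of these sets were 2024 and 1277 bp, so only the second came near the 1093.5 bp of the Cpr genes. For CLAMP, 2 of 70 Cpr genes were reproducible, against 24.7% of all genes, 22.2% within the length range and 13.9% between the quartiles. The same 2 genes, Cpr50Cb and Cpr65Ec, were the only Cpr genes with both proteins, against 21.9% of all genes, 19.7% of those within the length range and 12.2% of those between the quartiles. The CP190 count moved with the window, to 12 Cpr genes (17.1%) within 500 bp, against 52.9% of all genes, and to 46 (65.7%) within 5 kb, against 78.2%. No p-value belongs to these shares, since neighbouring genes share peaks and the genes are not replicates.

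**Figure D1:**
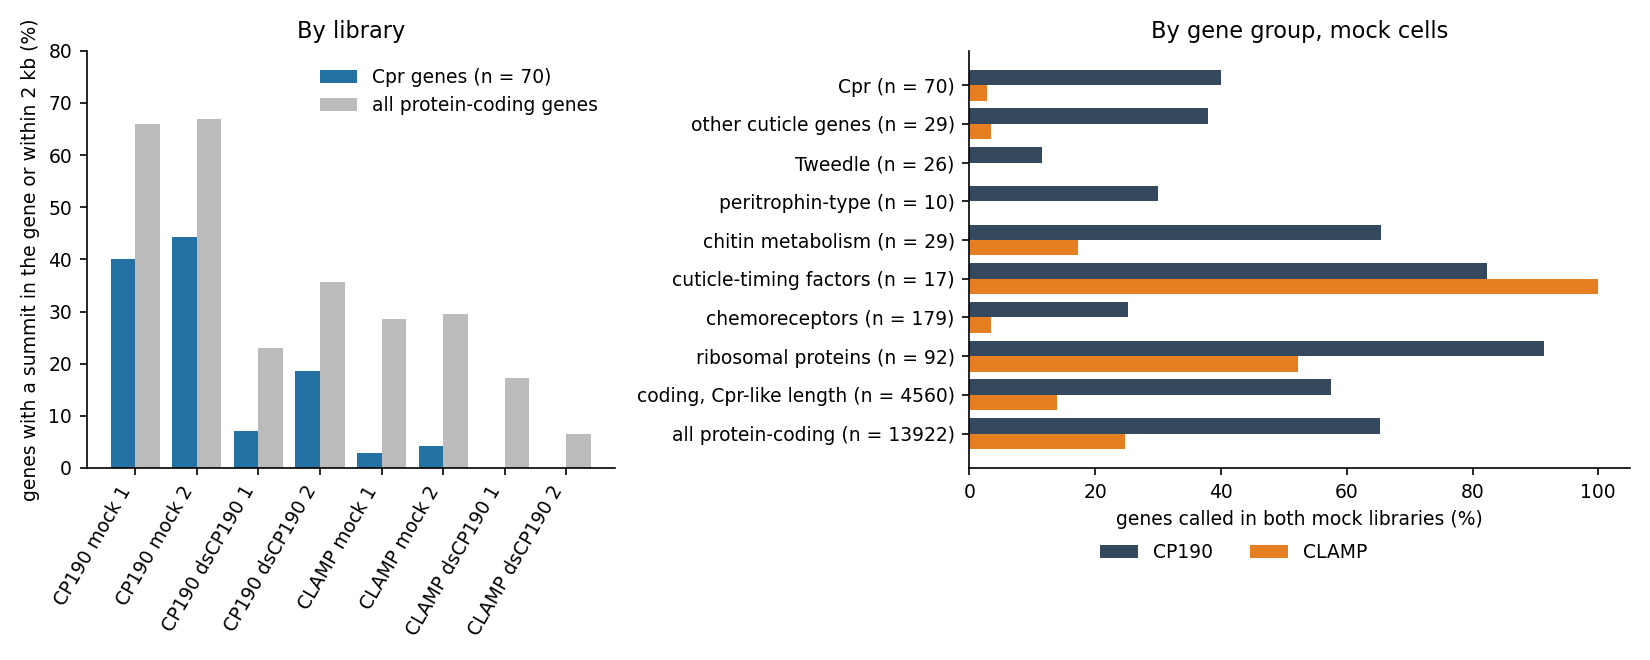
Percentage of genes with a peak summit in the gene or within 2 kb. The left panel gives each of the 8 libraries for the 70 Cpr genes (blue) and for all 13922 protein-coding genes (grey), and the right panel gives the share called in both mock libraries of CP190 (dark) and of CLAMP (orange) for each gene group, with n in brackets. The Cpr bar is below the grey bar in every library, and in the right panel the Cpr genes (40.0%) and the Lcp, Ccp and Edg list labelled other cuticle genes (37.9%) have similar CP190 bars, above those of the Tweedle genes (11.5%) and the peritrophin-type genes (30.0%).

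CP190 was called in at least 1 mock library at 31 Cpr genes (44.3%), against 67.5% of all protein-coding genes. Of the 42 Cpr genes without reproducible CP190, 39 had no CP190 call in any of the 4 libraries. The share of all genes with no call in any library was not counted. The remaining 3, Cpr49Ac, Cpr49Ad and Cpr65Ay, were called in mock replicate 2 only, with Cpr49Ac and Cpr49Ad sharing a single peak of 4.04-fold enrichment and Cpr65Ay having one of 2.72-fold. The 39 included Cpr66D and Cpr72Ec, which encode proteins of the corneal lens, and both members of the pair Cpr65Ax1 and Cpr65Ax2. How reads from near-identical gene copies were placed is not given in the sources used here, and what this did at Cpr65Ax1, Cpr65Ax2, Cpr67Fa1 and Cpr67Fa2 was not tested. For CLAMP 67 genes had no call in any library, and Cpr51A had a single call of 2.32-fold in mock replicate 2. With Cpr51A, 3 Cpr genes (4.29%) had CLAMP in at least 1 mock library, against 33.5% of all genes.

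The genes with CP190 were longer than the rest and lay closer to other genes. Their median length was 1727 bp against 916.5 bp for the other 42, and their median gap to the nearest protein-coding gene outside the family was 509.5 bp against 1077 bp. Length and spacing thus moved with the calls, and their part in the count was not tested. At the limit of the window, the reproducible summit farthest from its gene that still counted lay 1699.5 bp from Cpr11B, and the nearest one that did not count lay 2025 bp from Cpr57A. For CLAMP these were 963.5 bp at Cpr65Ec and 2752.5 bp at Cpr67B.

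Distance to the nearest reproducible region gave the same contrast without a window. A region here is the union of overlapping peaks of an antibody's 4 libraries. From a Cpr gene to the nearest CP190 region the median was 2.77 kb, against 0.345 kb for all protein-coding genes and 0.398 kb for those within the Cpr length range. The genes between the Cpr length quartiles, which are nearer in length, were not compared by distance. The lower and upper quartiles over the Cpr genes were 0.842 and 7.84 kb. Few Cpr genes were remote from CP190, however: 2 of 70 (2.86%) lay more than 20 kb from a region, against 6.15% of all genes, and the farthest was Cpr35B at 62.2 kb. For CLAMP the median was 21.3 kb against 10.7 kb, and 37 Cpr genes (52.9%) lay more than 20 kb away, against 34.7% of all genes.

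Where CP190 was present at the Cpr genes, it was not weak. The 28 genes were served by 28 reproducible regions, 4 of which lay at a pair of Cpr genes each, while some genes had more than 1 region. Their mean mock fold enrichment, the authors' fold over local background at the summit, had a median of 11.3 (range 2.79 to 43.1) against 8.36 for all 7356 reproducible CP190 regions. Their median width was 936 bp (448 to 1954 bp) against 850 bp. All regions were split into 5 equal classes by the mean percentile of their fold enrichment in the mock lists. From the weakest to the strongest, the classes held 4, 3, 5, 7 and 9 regions at Cpr genes. The strongest class, in which the lowest mean mock fold was 16.8, thus held the most of them.

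Many of these regions lay nearer to an end of a neighbouring gene than to an end of a Cpr gene. Of the 28 regions, 13 had a Cpr gene end as the nearest protein-coding gene end and 15 had that of another gene. Among the 15, 10 summits were within 100 bp of the other gene's end, whereas 1 of the 13 was within 100 bp of a Cpr gene end. Together these were 11 of 28 (39.3%) within 100 bp of some protein-coding gene end, against 41.8% of all CP190 regions. How often summits near other genes lie closer to a neighbour's end was not counted, so the split of 13 and 15 has no background. The summits lay inside a Cpr gene in 6 cases, inside only another gene in 3 and between genes in 19. Those inside Cpr47Ea and Cpr73D and 1 of those inside Cpr50Ca were still nearer to another gene's end. Over all 28, 18 (64.3%) were within 500 bp of some protein-coding gene end, against 62.1% of all regions. Within 500 bp of a Cpr gene end lay 7, a count that has no background either. Gene orientation is not in the gene table, so starts and 3' ends were not told apart.

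**Figure D2:**
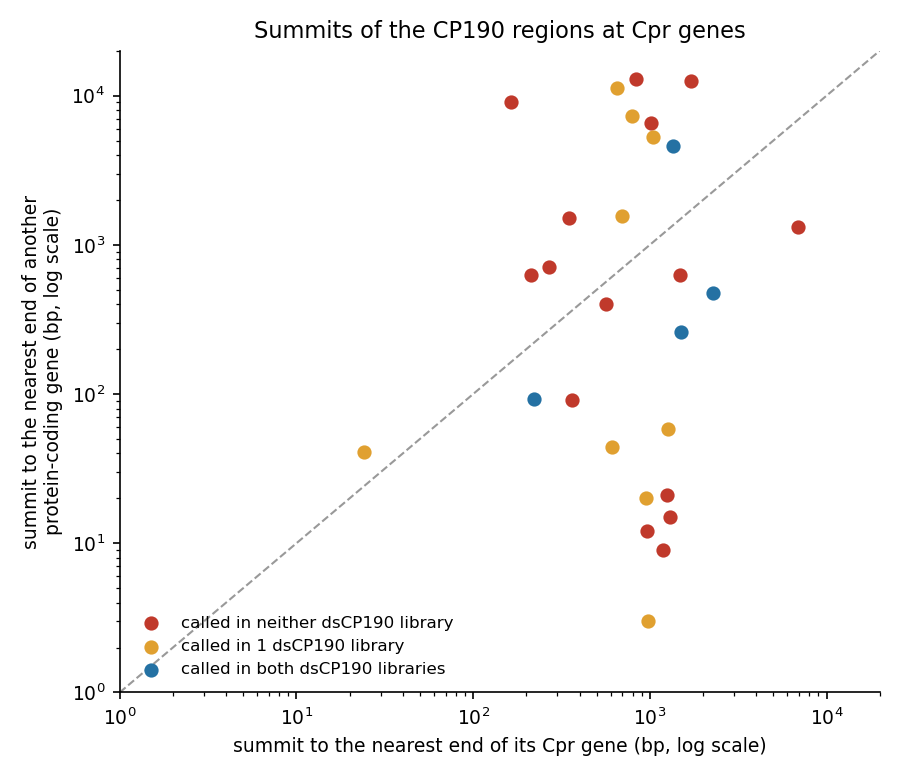
Each point is the summit of 1 of the 28 reproducible CP190 regions at Cpr genes, placed by its distance in bp from the nearest end of its Cpr gene (x) and of another protein-coding gene (y), both on log axes and coloured by the calls after dsCP190. Points below the dashed line of equal distance are closer to an end of another gene than to an end of their Cpr gene. Some of these summits lie inside the Cpr gene. The points lowest on the plot are the summits within 100 bp of another gene's end, and 1 point is that close to a Cpr gene on the x axis.

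The strongest CP190 region at a Cpr gene was next to Cpr76Ba, on 3L from 19516096 to 19517294. Its fold enrichment was 42.1 and 44.1 in the mock libraries, and it was called in neither dsCP190 library. The summit stood 838 bp outside Cpr76Ba in an intergenic stretch where the gene on the far side, CG9452, was 12844 bp away. The fragments at the summit, worked back from the deposited fold and p-value, numbered 286 and 390, where the local background was 5.82 and 7.87. It ranked 23 among all 7356 reproducible regions, and of the 23 regions at least as strong it was the only one with no call after dsCP190. A further strong region without a call after dsCP190 was found at a pair of Cpr genes. This region, between Cpr62Ba and Cpr62Bb (3L, 1831282 to 1832610) and 163 bp from Cpr62Ba and 690 bp from Cpr62Bb, had 31.8-fold and 25.8-fold enrichment in mock cells from 298 and 338 fragments. It ranked 344, and of the 344 regions at least as strong 19 had no call in either dsCP190 library.

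The 4 Cpr genes called in all 4 CP190 libraries were Cpr100A, Cpr73D, Cpr97Ea and Cpr49Ae. Near Cpr100A (3R, 30869991 to 30871349) the fold enrichment was 39.6 and 38.5 in mock cells and 7.41 and 8.90 after dsCP190, from 290 and 394 fragments at the summit against 48 and 47. Means were 39.0 ± 0.791 and 8.16 ± 1.06 (SD, n = 2 each), with no overlap between treatments. The summit was 1494 bp from Cpr100A but 261 bp from the gene CG15545.

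The region at Cpr73D (3L, 16954967 to 16956472) lay inside the gene, in a stretch where it overlaps Ogdh, the gene of an oxoglutarate dehydrogenase subunit, and 478 bp from Obp73a, of the odorant-binding protein family. Its fold enrichment was 38.3 and 26.0 in mock cells and 8.67 and 19.6 after dsCP190, with means of 32.2 ± 8.69 and 14.1 ± 7.71 (SD, n = 2 each). The treatments did not overlap, but the dsCP190 replicate 2 value came close to the mock replicate 2 value, and both SDs were large.

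At Cpr97Ea (3R, 27081941 to 27083894) the values were 26.3-fold and 22.4-fold in mock cells and 9.05-fold and 14.3-fold after dsCP190, with means of 24.4 ± 2.74 and 11.7 ± 3.69 (SD, n = 2 each). The summit was 92 bp from CG14257 and 220 bp from Cpr97Ea. At Cpr49Ae (2R, 12403231 to 12404351) the summit lay inside the gene, 1349 bp from its nearer end, with 22.9-fold and 20.8-fold in mock cells and 3.52-fold and 9.24-fold after dsCP190 (means 21.8 ± 1.46 and 6.38 ± 4.05; SD, n = 2 each). In all 4 regions both dsCP190 values were below both mock values. That held for 92.8% of the 1661 CP190 regions called in all 4 libraries, so it does not set the Cpr genes apart. Likewise, the value was below both mock values at 5 of the 5 Cpr regions called in dsCP190 replicate 1, against 98.3% of all regions called there, and at 12 of the 12 called in replicate 2, against 95.7%.

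**Figure D3:**
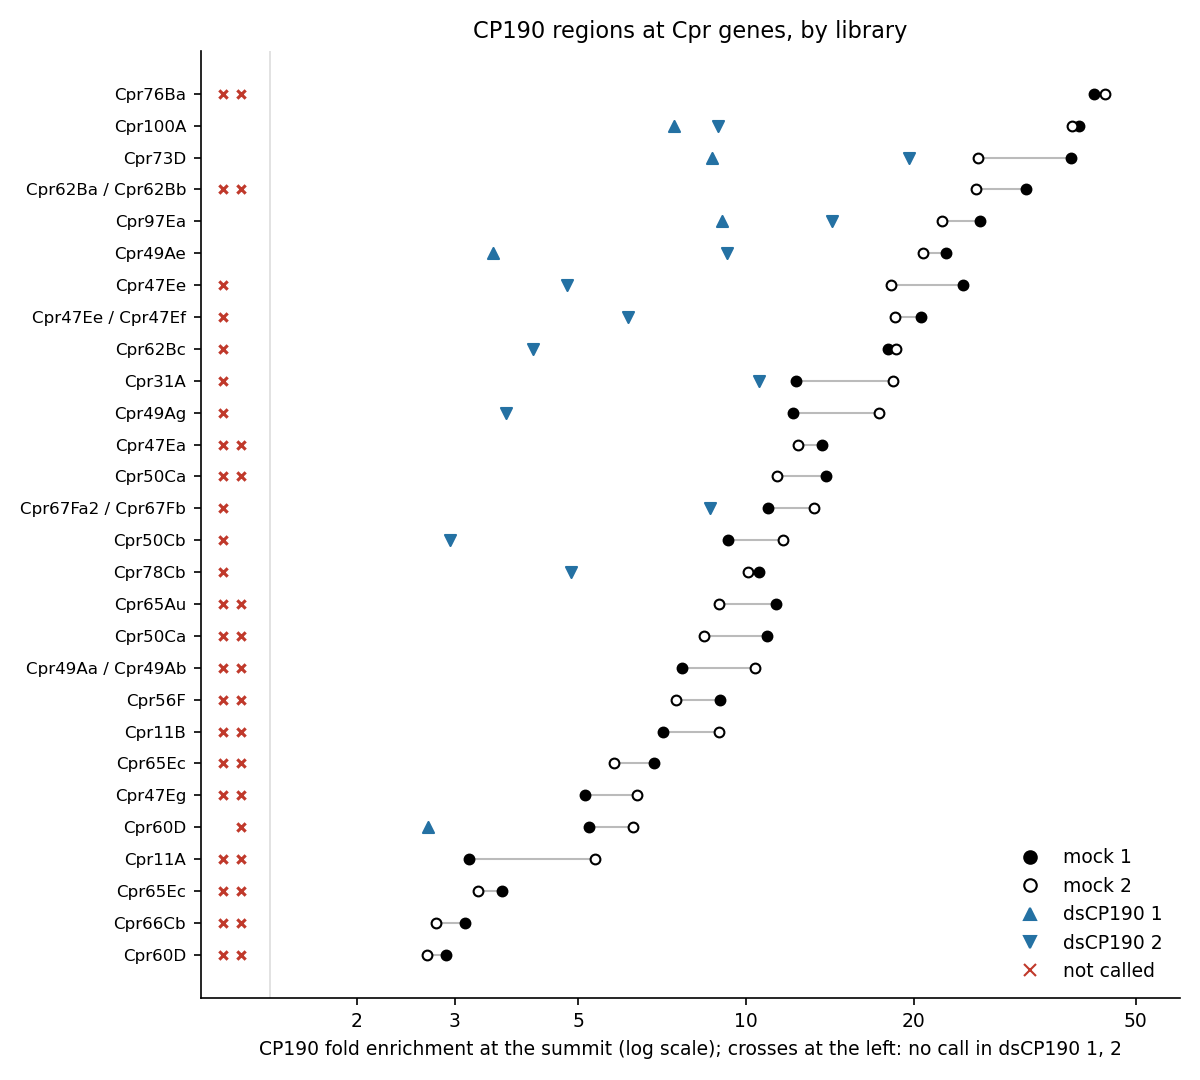
CP190 fold enrichment at the summit, on a log axis, at the 28 reproducible regions of Cpr genes, with 1 line per region, circles for the mock libraries and triangles for the dsCP190 libraries. A cross at the left means that no peak was called in that dsCP190 library. Every triangle is to the left of the circles on its line, and Cpr76Ba, with mock values of 42.1 and 44.1, has crosses for both dsCP190 libraries.

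A further set of strong regions was called in dsCP190 replicate 2 only. Cpr47Ee had 2 of them on 2R. The first (11263802 to 11264894), 1036 bp outside the gene, had 24.5-fold and 18.2-fold in mock cells and 4.77-fold in dsCP190 replicate 2. The second (11265562 to 11266908), inside Cpr47Ee and 853 bp from Cpr47Ef, had 20.6-fold and 18.5-fold against 6.13-fold. Both were thus below the mock values where they were still called.

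Cpr62Bc (3L, 1839090 to 1840350) had 18.0-fold and 18.5-fold in mock cells and 4.15-fold in dsCP190 replicate 2, at 649 bp from the gene. Near Cpr31A (2L, 10056550 to 10057805) the values were 12.3 and 18.4 against 10.5, but the summit was 20 bp from Pen, the gene of an importin alpha, and 945 bp from Cpr31A. For Cpr49Ag (2R, 12409304 to 12410283) they were 12.1 and 17.3 against 3.70, and the summit was 58 bp from CG30050. In each of these 5 regions the called dsCP190 value was below both mock values.

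The other 17 regions had mean mock fold enrichments from 2.79 to 13.0. They include the region at the gap between Cpr49Aa and Cpr49Ab and the one between Cpr67Fa2 and Cpr67Fb. They also include 1 that lay 24 bp from Cpr78Cb and 41 bp from Edg78E, an ecdysone-dependent cuticle gene. Several lay at the end of genes of unrelated function, such as that near Cpr47Eg, 15 bp from Vhl, which encodes the substrate receptor of an E3 ubiquitin ligase, and that near Cpr66Cb, 91 bp from Pex2, which encodes a peroxin.

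After dsCP190, 14 of the 28 Cpr genes with CP190 had no call in either library (the share over all reproducible genes was 43.8%), 10 had a call in 1 library (24.1%) and 4 kept a call in both (32.2%). The 14 genes were Cpr11A, Cpr11B, Cpr47Ea, Cpr47Eg, Cpr49Aa, Cpr49Ab, Cpr50Ca, Cpr56F, Cpr62Ba, Cpr62Bb, Cpr65Au, Cpr65Ec, Cpr66Cb and Cpr76Ba. Of the 10, 9 were called in dsCP190 replicate 2, the list with more peaks, and 1, Cpr60D, in replicate 1. Calls of all reproducible genes leaned the same way: 65.7% had none in dsCP190 replicate 1 and 45.9% had none in replicate 2. At the Cpr genes these were 23 and 15 of 28. No Cpr gene gained CP190 in both dsCP190 libraries, against 0.0790% of all genes.

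The call after dsCP190 went with the enrichment in mock cells. The median mock fold was 28.3 (21.8 to 39.0) for the 4 kept genes, 13.4 (5.74 to 21.3) for the 10 called once and 9.02 (2.96 to 43.1) for the 14 not called. Among regions, all 4 kept ones were in the strongest of the 5 classes, where 73.4% of all regions were kept. In that class 2 of 9 Cpr regions were not called after dsCP190, against 9.59% of all regions, and these were the regions at Cpr76Ba and at Cpr62Ba and Cpr62Bb. In the second strongest class, 2 of 7 were not called and 0 were kept, against 28.4% and 31.8% of all regions. In the middle class all 5 were not called, against 66.9%, in the next 2 of 3, against 91.4%, and in the weakest 4 of 4, against 95.6%. With so few regions per class, these counts describe the members and test nothing. They also rest on the length of the lists. With every CP190 list shortened to the same number of strongest peaks, 10 Cpr genes were reproducible in mock cells. Of these, 4 had no call after dsCP190, against 9.31% of all genes reproducible in those lists, and 4 were called in all 4 libraries, against 76.1%. These are counts of genes, in which genes that share a region count separately, and regions were not counted in the shortened lists. The counts of calls after dsCP190 also move with single libraries, as the shares of all genes do. Without dsCP190 replicate 2, 23 of 28 genes had no call after treatment, against 65.7% of all genes. Without dsCP190 replicate 1, 13 of 28 kept their call, against 54.1%.

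CLAMP was reproducible at 2 Cpr genes, and both regions sat at a neighbouring gene, with mean mock folds of 4.33 and 3.45 against a median of 4.41 over all reproducible CLAMP regions. The region beside Cpr65Ec (3L, 7094541 to 7094973) had 4.69-fold and 3.97-fold enrichment in mock cells, from 67 and 55 fragments at the summit, and ranked 1862 among 3654 reproducible CLAMP regions. Its summit was 14 bp from form3, the gene of a formin that acts on the actin cytoskeleton. The region beside Cpr50Cb (2R, 13805739 to 13806295) had 3.27-fold and 3.64-fold, from 48 and 40 fragments, and ranked 2367. Its summit was 226 bp from the end of stj, the gene of a voltage-gated calcium channel subunit.

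Both CLAMP regions overlapped a CP190 region. At Cpr65Ec the CP190 region (3L, 7094448 to 7095024) had 6.83-fold and 5.80-fold enrichment in mock cells, and its summit at 7094806 stood beside the CLAMP summit at 7094804. At Cpr50Cb the CP190 region (2R, 13805269 to 13806273) had 9.29-fold and 11.6-fold in mock cells and 2.94-fold in dsCP190 replicate 2. Its summit at 13805838 was farther from the CLAMP summit, at 13806020. After dsCP190 neither gene had a CLAMP call. Of all genes with reproducible CLAMP, 33.1% had none, 40.5% had a call in 1 library and 26.4% had a call in both. Without dsCP190 replicate 1, the share with none was 73.5%. With all CLAMP regions split into 5 classes as for CP190, the Cpr50Cb region was in the second weakest class and the Cpr65Ec region in the middle one. In these classes 68.5% and 37.5% of all CLAMP regions had no call after dsCP190. No Cpr gene gained CLAMP, as none did in the table at large (0.00%).

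The Cpr genes are tandemly arrayed, so their clusters were examined as units. Joining Cpr genes with gaps of at most 10 kb gave 11 clusters of at least 3 genes, with 45 Cpr genes over 158.9 kb. CP190 was reproducible at 17 of the 45 clustered genes and at 11 of the 25 others, and CLAMP at 1 gene of each kind. Inside the clusters lay 10 CP190 regions, or 6.29 per 100 kb, against 5.55 per 100 kb along the arms. The 5 kb borders outside the clusters held 11, or 10.0 per 100 kb. Of the 22 borders, 10 held a CP190 region, against 53.9% of the ends of all protein-coding genes taken in the same way, so the share of cluster borders with CP190 was not above that of gene ends at large. Only the Cpr65E and Cpr67F clusters had a region in both borders.

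No CLAMP region lay inside any of the 11 clusters, where the density along the arms was 2.75 per 100 kb. In the borders CLAMP was present at 2 of 22, against 15.6% of all gene ends, while within 10 kb it was at 6 of 22, against 26.1%. One was the region beside Cpr65Ec. The other was 3.92 kb outside Cpr67Fa1 (3L, 10885775 to 10886369), with 14.8-fold and 16.2-fold enrichment in mock cells, 15.3-fold in dsCP190 replicate 1 and no call in replicate 2. Its mock values were above 9.44, the lowest mean of the strongest CLAMP class. In that class 80.4% of all regions were called in dsCP190 replicate 2, and why this one was not called was not tested. The CLAMP region overlapped a CP190 region of 19.3-fold and 19.4-fold in mock cells and 6.20-fold and 7.17-fold after dsCP190. There the CLAMP value that was called after dsCP190 lay between the mock values, while both CP190 values were below them. The CLAMP value is from 1 library, and how often CLAMP regions at large keep such a value was not counted.

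**Figure D4:**
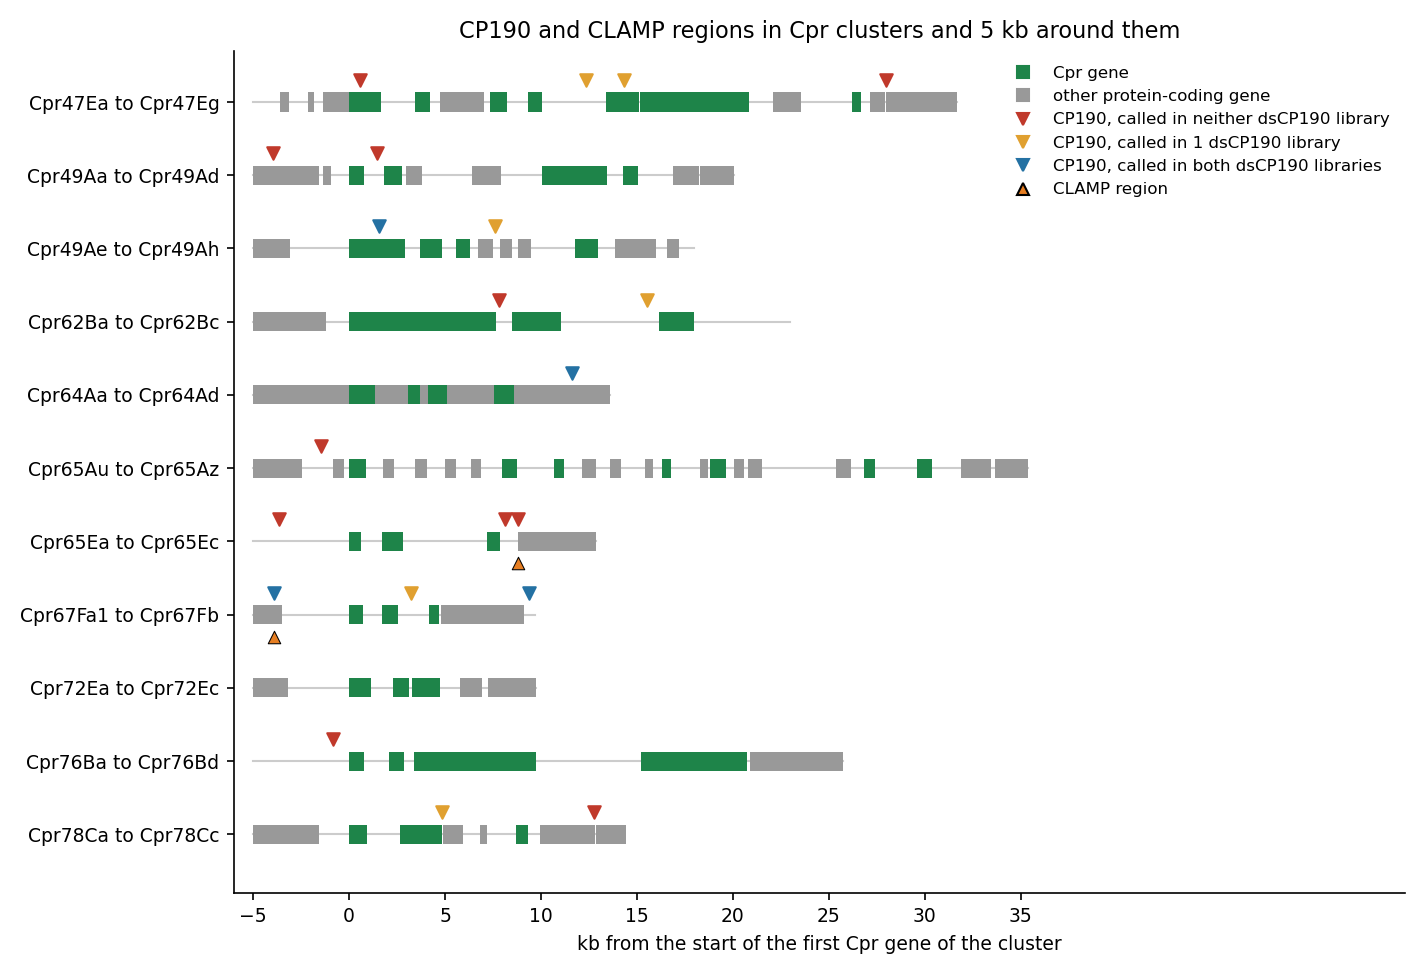
The 11 clusters of Cpr genes drawn to scale in kb from the start of the first Cpr gene, with 5 kb on either side. Green boxes are Cpr genes, grey boxes are other protein-coding genes, downward triangles are reproducible CP190 regions coloured by their calls after dsCP190, and upward triangles are CLAMP regions. Regions are missing inside 5 clusters, including the whole run from Cpr65Au to Cpr65Az, and no CLAMP region is inside any cluster.

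The clusters differed among themselves. The longest, from Cpr65Au to Cpr65Az on 3L (6131242 to 6161589), spans 30.3 kb and holds 7 Cpr genes and 11 others, among them 9 larval cuticle genes of the Lcp65A group and the adult cuticle gene Acp65Aa. No reproducible CP190 or CLAMP region lay inside it. The nearest CP190 regions were 1.49 kb before its first gene, with 11.3-fold and 8.95-fold in mock cells and no call after dsCP190, and 12.3 kb past its last gene.

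Of the other clusters with none inside, that of Cpr72Ea to Cpr72Ec had no CP190 region within 10.7 kb on one side and 11.2 kb on the other. The cluster from Cpr76Ba to Cpr76Bd, of 20.7 kb, had only the region outside Cpr76Ba, and the next one lay 14.1 kb past Cpr76Bd. The cluster from Cpr64Aa to Cpr64Ad lies within the gene CG43367 and had a region 3.05 kb outside Cpr64Ad with 20.9-fold and 18.4-fold in mock cells and 6.35-fold and 19.0-fold after dsCP190. There the dsCP190 replicate 2 value lay between the mock values, so the treatments overlapped.

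In contrast, the cluster from Cpr47Ea to Cpr47Eg, of 26.7 kb, held 3 CP190 regions, and that from Cpr49Ae to Cpr49Ah, of 13.0 kb, held 2, as did that from Cpr62Ba to Cpr62Bc, of 18.0 kb. The Cpr62B regions both lay between successive Cpr genes with no other protein-coding gene in the cluster. The right border of the Cpr67F cluster had a region of 31.1-fold and 23.8-fold in mock cells that was also called after dsCP190, at 7.46-fold and 17.9-fold. It was thus the strongest border region after that of Cpr76Ba.

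Other genes of cuticle formation were counted in the same way. Among 29 other cuticle genes, mainly of the Lcp, Ccp and Edg groups and resilin, 11 (37.9%) had reproducible CP190 and 1, Edg84A, had CLAMP. Of the 11, 6 had no call after dsCP190, 3 had 1 and 2, resilin and Edg84A, were called in both libraries; resilin is the elastic protein of insect joints. The Tweedle genes, a separate family of cuticle proteins, had CP190 at 3 of 26 (11.5%) and CLAMP at 0. The peritrophin-type genes, whose products also bind chitin, had CP190 at 3 of 10 (30.0%) and CLAMP at 0. Of the listed symbols, 26 of 27 Tweedle genes and 10 of 14 peritrophin-type genes were found in the gene table. The families of structural cuticle proteins were thus all below the 65.3% and 24.7% of genes at large. They were also below the 57.4% and 13.9% of genes between the Cpr length quartiles. Median lengths were 786 bp for the other cuticle genes, 1090 bp for the Tweedle genes and 2324 bp for the peritrophin-type genes, the last outside those quartiles.

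The enzymes and regulators of the cuticle had larger shares, with no test of the difference. Of 29 genes of chitin synthesis, modification and turnover, 19 (65.5%) had CP190, including kkv, the chitin synthase of the epidermis, and 5 (17.2%) had CLAMP. Of 19 listed transcription factors of cuticle timing and epidermis, 17 were found in the gene table. Of these 17, 14 (82.4%) had CP190 and 17 (100%) had CLAMP. EcR, the ecdysone receptor, and ftz-f1, Eip74EF and Eip75B, which act in the ecdysone cascade, were called in all 4 CP190 libraries, whereas usp, the partner of EcR, and br, an ecdysone-induced factor, had no call after dsCP190. In all, 7 of the 14 were called in both dsCP190 libraries, against 32.2% of all genes, and 6 in neither, against 43.8%. The factors have a median length of 33354 bp and the chitin genes of 3300 bp, above that of the Cpr genes, so their windows take in more summits. Outside the cuticle, cytosolic ribosomal protein genes had CP190 at 84 of 92 (91.3%) and CLAMP at 48 (52.2%), while chemoreceptor genes had CP190 at 45 of 179 (25.1%) and CLAMP at 6 (3.35%). The Cpr genes lay between these groups for CP190. For CLAMP their share (2 of 70, 2.86%) was close to that of the chemoreceptor genes and below that of the ribosomal protein genes. The shares were not tested against each other.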

How the data were processed

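Each of the 8 immunoprecipitations had its own peak list, whose peak names carry the replicate number. Per the submitters' processing notes, MACS2 2.1.1.20160309, Bowtie2 2.3.4.1, cutadapt 1.16, deepTools 3.0.2 and Picard 2.18.9 were used, on dm6. Which control library and calling parameters were used is not given in the sources used here. The authors deposited, per peak, a fold enrichment (a ratio over local background), −log10 p and −log10 q values, a score made from the latter and a summit offset. These are values of single peaks, with no total depth.

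Summits were tied to genes of the RefSeq table, as gene ends without strand. Fragments at a summit were recovered from the deposited fold and −log10 p under a Poisson model. They came out whole within 0.05 for 99.1% to 99.8% of peaks per library, with medians of 43 to 121 fragments over backgrounds of 7.97 to 20.3, and cover counting error only. Genes named with values were the first 12 for CP190 by mean mock fold, up to 8 for CLAMP, of which there were 2, and those with both proteins or called in all 4 libraries of an antibody. The neighbours Cpr57A and Cpr67B, single calls and a few further regions were named after their values were seen. The members and gene lists were chosen with earlier results of these data known. The scripts, in Python 3.11.15 with NumPy 2.4.6, pandas 2.3.3 and SciPy 1.17.1, were tested on simulated peaks. Alternatives covered the window, the peak threshold, list length, cluster settings and each library left out. Sequence motifs and protein domains were not analysed here.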

Additional observations from a re-analysis of the deposited data

How the results depend on the processing

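The number of Cpr genes with CP190 follows the window. It was 28 within 2 kb, 12 within 500 bp, 46 within 5 kb and 5 inside the gene, where all protein-coding genes had 52.9%, 78.2% and 15.9%, so the Cpr share was lower at each. It was 26 at a −log10 q of at least 10, against 61.7% of all genes, and 28 to 31 with a mock library left out, against 66.0% to 66.8%. CLAMP went from 2 to 0 within 500 bp, 5 within 5 kb and 0 inside the gene, against 17.5%, 35.2% and 11.4% of all genes, and was 2 to 3 with a library left out, against 28.6% to 29.6%. Cpr genes without CP190 after dsCP190 were 4 (of 10 with CP190) in place of 14 (of 28) with lists of equal length, and 14 to 23 with a library left out, 23 being without dsCP190 replicate 2, where the share of all genes rose from 43.8% to 65.7%. Those kept were 4 to 13, 13 being without dsCP190 replicate 1, where that share rose from 32.2% to 54.1%. For CLAMP the 2 genes without a call became 0 with lists of equal length, where no Cpr gene was reproducible, and 2 to 3 with a library left out. The share of all genes went from 33.1% to 4.41% with equal lists. With a library left out it was 33.1% to 73.5%, the highest being without dsCP190 replicate 1. Genes with both proteins fell to 1 when summits had to lie within 100 bp. CP190 regions inside clusters were 6 when genes were joined over at most 5 kb, which shortened the clusters from 158.9 to 72.0 kb, so that the density went from 6.29 to 8.33 per 100 kb. Of the 22 borders, CP190 was at 4 within 2 kb (36.5% of all gene ends) and 13 within 10 kb (68.2%), in place of 10. CLAMP was at 1 within 2 kb (8.37%) and 6 within 10 kb (26.1%), in place of 2, so its count lay below the background at 5 kb but not at 10 kb. Narrower windows, shorter lists and shorter clusters hold fewer summits by construction. The background of 65.3% for CP190 became 64.5% within the Cpr length range and 57.4% between its quartiles, a setting added after seeing the data, and that of 24.7% for CLAMP became 22.2% and 13.9%. No paired analysis was possible because the results over Cpr genes come from no test, and values by replicate number are given side by side. The distance to the gene start was not run, as the gene table has no strand.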
